A study of Mus musculus with 4 samples.

Results

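The guanylate-binding proteins (GBPs) are a family of large GTPases that interferons induce. The 10 family genes Gbp2, Gbp2b, Gbp3, Gbp4, Gbp5, Gbp6, Gbp7, Gbp8, Gbp9 and Gbp10, taken by name from the 32285 genes of the matrix, are followed here through every cell type and sample of a single-cell RNA-seq experiment on immune cells of mouse melanomas. The family was chosen because its levels were already known to differ between these samples, so all levels and ratios below are descriptions and carry no test. CD45+ cells, which are cells of haematopoietic origin, were sorted alive from tumours grown in Rag2-/- mice, which make no T or B cells of their own. All 4 tumours came from YUMM1.7 melanoma cells, a Braf-mutant line that also expresses ovalbumin. All hosts received OT-1 CD8+ T cells, which recognise an ovalbumin peptide, on day 7, and tumours were isolated on day 10, which is 72 hours later. NTT is the line naive to targeted therapy, and RTT is the line made resistant to inhibitors of BRAF and the MAPK pathway, which is also cross-resistant to immunotherapy. RTT_ROSA26 is the resistant line edited with a control guide (ROSA26), and RTT_PTGS12KO is the resistant line with Ptgs1 and Ptgs2, the cyclooxygenase genes of prostaglandin synthesis, knocked out. The edits lie in the cancer cells, and the host cells carry none. The CD45+ sort was not pure, since 6, 249, 59 and 37 cells of NTT, RTT, RTT_ROSA26 and RTT_PTGS12KO were named Myofibrobl, led by stromal genes. Each group is 1 sample, labelled as 1 tumour, although the study's figure legends speak of tumours pooled per group, and which holds here was not settled. A tumour below means such a sample, and no difference has a replicate check. The comparison of RTT_ROSA26 with RTT, which both keep Ptgs1 and Ptgs2, serves as a yardstick for how far tumours of one kind differ.

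As background, interferon-gamma and, to varying degrees, type I interferons switch on Gbp genes, in part through IRF1, in macrophages above all. The proteins bind GTP, assemble on vacuoles that hold microbes and on bacteria themselves, and act beside the immunity-related GTPases, another interferon-induced family. By opening vacuoles and exposing microbial products they feed the caspase-11 and AIM2 inflammasomes, and in tumours their transcripts are widely read as a trace of interferon exposure.

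The family occupies 2 clusters in the mouse genome, and all 10 genes are annotated as protein coding in GENCODE on GRCm38, the mm10 build of the deposited matrix. On the plus strand of chromosome 3 lie Gbp5 at chr3:142493978-142522344, Gbp7 at chr3:142530342-142550149, Gbp3 at chr3:142560026-142573209, Gbp2b at chr3:142594847-142619179 and Gbp2 at chr3:142620602-142638008. On the minus strand of chromosome 5 lie Gbp8 at chr5:105014150-105139540, Gbp9 at chr5:105077630-105139539, Gbp4 at chr5:105115767-105139586, Gbp10 at chr5:105215699-105239533 and Gbp6 at chr5:105270702-105293698. Gbp8, Gbp9 and Gbp4 overlap on the same strand, so a read there cannot always be given to 1 of the 3.

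Because 3' tags were counted, the ends of the transcripts decide which members can be told apart. Among stretches of 90 bases in the last 500 bases of the coding transcripts, Gbp2 shared 0 of 411 with any other member and Gbp2b shared 0 of 411, so the close relatives Gbp2 and Gbp2b are distinct where tags fall. Gbp6 shared 269 of 411 such stretches (65.5%) and Gbp10 321 of 411 (78.1%), with each other, and the split of UMIs between those genes is uncertain. For Gbp4 the shared portion was 4.79%, for Gbp3 0.45%, and for Gbp5, Gbp7, Gbp8 and Gbp9 it was 0.

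The regions before the RefSeq starts of the 5 members on chromosome 3 are shown because they carry the letters to which the interferon-activated factors bind. RefSeq promoters of 300 bases, from 250 before to 50 after the transcription start on GRCm38.p6, matched 5 of the 10 members in 6 windows, all on chromosome 3. Capitals mark the GAS motif TTCNNNGAA, the interferon-gamma-activated site, and the core of the ISRE, GAAANNGAAA or TTTCNNTTTC on the other strand, which IRF factors bind. Each line gives the 250 bases before the start, 5′ to 3′ on the plus strand, with the first of 2 windows for Gbp3. RefSeq and GENCODE starts differ. The Gbp5 window lies inside the GENCODE gene, whose first bases belong to a transcript with no coding sequence, and it runs past the start of the GENCODE coding transcript at chr3:142496900-142522344. The Gbp2 and Gbp3 windows also run a little past their GENCODE starts.
Gbp2, chr3:142620413-142620662: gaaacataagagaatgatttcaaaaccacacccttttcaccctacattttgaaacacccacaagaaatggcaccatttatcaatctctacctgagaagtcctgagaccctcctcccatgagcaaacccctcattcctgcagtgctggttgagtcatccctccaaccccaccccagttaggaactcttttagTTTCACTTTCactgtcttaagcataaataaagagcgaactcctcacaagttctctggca
Gbp2b, chr3:142594597-142594846: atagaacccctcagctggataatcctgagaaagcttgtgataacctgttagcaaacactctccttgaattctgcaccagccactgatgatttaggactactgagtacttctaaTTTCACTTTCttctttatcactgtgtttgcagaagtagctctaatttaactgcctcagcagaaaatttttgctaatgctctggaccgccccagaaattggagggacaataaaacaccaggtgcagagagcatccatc
Gbp3, chr3:142559794-142560043: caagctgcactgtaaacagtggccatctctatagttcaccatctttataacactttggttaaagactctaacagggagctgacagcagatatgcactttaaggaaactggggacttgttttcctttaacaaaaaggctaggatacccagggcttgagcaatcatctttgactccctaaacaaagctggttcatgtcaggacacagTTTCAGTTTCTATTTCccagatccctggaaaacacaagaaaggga
Gbp5, chr3:142496684-142496933: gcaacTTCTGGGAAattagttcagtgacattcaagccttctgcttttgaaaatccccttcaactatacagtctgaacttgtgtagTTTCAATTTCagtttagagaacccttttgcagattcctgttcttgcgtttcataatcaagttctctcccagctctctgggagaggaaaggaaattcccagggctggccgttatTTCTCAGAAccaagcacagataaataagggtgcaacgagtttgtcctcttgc
Gbp7, chr3:142530086-142530335: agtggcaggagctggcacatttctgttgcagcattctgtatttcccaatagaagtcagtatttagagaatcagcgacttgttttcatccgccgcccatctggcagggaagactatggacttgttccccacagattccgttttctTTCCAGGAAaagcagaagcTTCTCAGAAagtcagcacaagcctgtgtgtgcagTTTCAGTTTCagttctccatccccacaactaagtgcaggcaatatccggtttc

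Gbp2 and Gbp2b each held 1 ISRE core of the same letters, TTTCACTTTC, and no GAS match in the window. The core began 59 bases before the RefSeq start in Gbp2 and 137 bases before it in Gbp2b. The GENCODE start of Gbp2, chr3:142620602, lies before this core, while that of Gbp2b equals its RefSeq start, so the distances are not directly comparable. Gbp5 and Gbp7 each held 2 GAS matches and 1 ISRE core. The Gbp3 window shown held 2 overlapping ISRE cores, and the second Gbp3 window held none. Across all 32851 RefSeq mouse promoters of this length, 8.30% held a GAS match, 3.44% an ISRE core and 0.454% both, searched on both strands. A match is a description of the letters and not a bound site, and a missing match says nothing of the factor.

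The matrix held 33368 cells in 17 cell types as named by the authors, with 6836 (RTT_ROSA26) to 10296 (RTT_PTGS12KO) cells a sample. The totals ran from 69332486 in NTT to 146829369 in RTT_PTGS12KO UMIs (unique molecular identifiers, each counting 1 captured transcript), and NTT cells were the shallowest with a median of 7293 UMIs against 12219 to 13280 in the others. Samples carried oligo labels and were pooled before loading, so free RNA was common to them. C1qa, a macrophage gene, was seen in 25.4% of NTT NK cells and 35.0% of RTT_PTGS12KO NK cells, at median depths of 7669 and 15524 UMIs, where it stood at 138 and 181 UMIs per 1000000 against 2568 to 3262 in the macrophages named TAM_C1q. Other myeloid genes spread wider, with Lyz2 in 75.7% and 84.3% and Apoe in 73.2% and 82.4% of the same NK cells, and Lyz2 there stood at 1045 and 1059 UMIs per 1000000 against 9325 to 17121 in TAM_C1q. In total 75 of 33270 barcodes occurred in more than 1 sample, and 0 cells shared a barcode within a load. The leading genes of Infl_Mono are type I interferon-stimulated genes, and those of TAM_H2Ab1 hold Gbp2b itself, so a member is among the genes that mark this type. TAM_H2Ab1 also has the dendritic cell gene Cadm1 among its leading genes and no macrophage marker there, although 4 of the 5 types counted as macrophages below have none either and its summed macrophage markers, 21419 UMIs per 1000000, lie within their range of 13667 to 41532. It was counted in monocytes and macrophages together and left out of the macrophage class, and with it counted the family's macrophage ratios below become 2.44, 3.07 and -1.36.

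In monocytes and macrophages together, the family was high in the naive and the knockout tumour and low in both resistant controls. Levels are in CPM, the UMIs of a gene per 1000000 UMIs of the summed cells, with exact Poisson 95% intervals that cover counting error only. The summed family stood at 2373, 398, 137 and 1469.8 CPM in NTT, RTT, RTT_ROSA26 and RTT_PTGS12KO, and values of the 4 samples keep this order below. NTT was 5.96-fold above RTT, a log2 ratio of CPM + 1 of 2.57 (95% interval 2.56 to 2.59), and RTT_PTGS12KO was 10.8-fold above RTT_ROSA26, a log2 ratio of 3.42 (95% interval 3.39 to 3.44). The resistant controls themselves differed, with RTT_ROSA26 at -1.54 (95% interval -1.56 to -1.51) on the log2 scale against RTT. Leaving out each of the 3 chip loads in turn, which repeat the same cell pool, gave 2.54 to 2.59 for NTT against RTT, 3.34 to 3.48 for the knockout contrast and -1.63 to -1.45 for the yardstick.

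The chromosome 3 members include genes needed for control of intracellular parasites, and each of these genes had its lowest level in RTT_ROSA26. Gbp2, a lipid-anchored GBP that coats vacuoles, stood at 850.1, 142, 38.7 and 685 CPM. Its knockout ratio was 17.7-fold against 5.97-fold for NTT over RTT. Gbp2b, which encodes the protein long known as mouse GBP1, stood at 218, 7.04, 2.01 and 77.9 CPM, the widest range among members over 10 CPM on average, and its ratios were 31.0-fold for NTT over RTT and 38.8-fold for knockout over guide control. Gbp7, which has been tied to assembly of the phagocyte oxidase, stood at 355, 124, 51.2 and 216 CPM. Its ratios of 2.87-fold and 4.22-fold were far below those of Gbp2b. Gbp5, a promoter of inflammasome assembly, stood at 121, 15.1, 5.04 and 66.2 CPM, and Gbp3 at 164, 28.8, 15.6 and 108 CPM. In each of the 5 genes NTT was highest, RTT_PTGS12KO next, then RTT, and the counting intervals of neighbours in that order did not overlap.

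On chromosome 5 the samples fell in the same order for all 5 genes. Gbp4 stood at 301, 27.0, 7.63 and 143 CPM, Gbp6 at 134, 13.1, 3.21 and 71.7 CPM and Gbp8 at 172, 25.4, 7.01 and 74.7 CPM. The Gbp6 and Gbp10 transcripts share most of their 3' ends, so their values are less certain gene by gene than as a group. The Gbp4, Gbp8 and Gbp9 loci overlap too, although at the 3' ends, where tags fall, the shared portion was 4.79%, 0 and 0. Gbp9 stood at 53.5, 15.5, 6.26 and 26.4 CPM and showed the smallest knockout ratio among the members over the filter, 1.92 on the log2 scale. Gbp10 stood at 4.83, 0.116, 0.0393 and 1.26 CPM, from 270, 12, 4 and 167 UMIs, so its resistant controls could not be told apart, and it alone failed the filter of a mean of 10 CPM.

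Among the 9 members at or over 10 CPM, 9 were at least 2-fold higher in NTT than in RTT, beside 6.89% of the 6955 genes compared. For RTT_PTGS12KO against RTT_ROSA26, 9 of 9 were at least 2-fold higher, beside 4.07% of genes, and for RTT_ROSA26 against RTT, 8 of 9 were at least 2-fold lower, beside 1.19%, with Gbp3 the exception at -0.84. With CPM + 10 in the ratio that last count was 4 of 9, beside 0.374%. The median log2 ratio over these 9 members was 2.71 for NTT against RTT, 3.48 for the knockout contrast and -1.42 for the yardstick, against -0.12, -0.13 and 0.06 over all genes compared. The members were chosen for this pattern and the filter keeps genes by their mean, so these counts describe the choice and support nothing. RTT is shared by the first contrast and the yardstick, and RTT_ROSA26 by the yardstick and the knockout contrast.

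**Figure D1:**
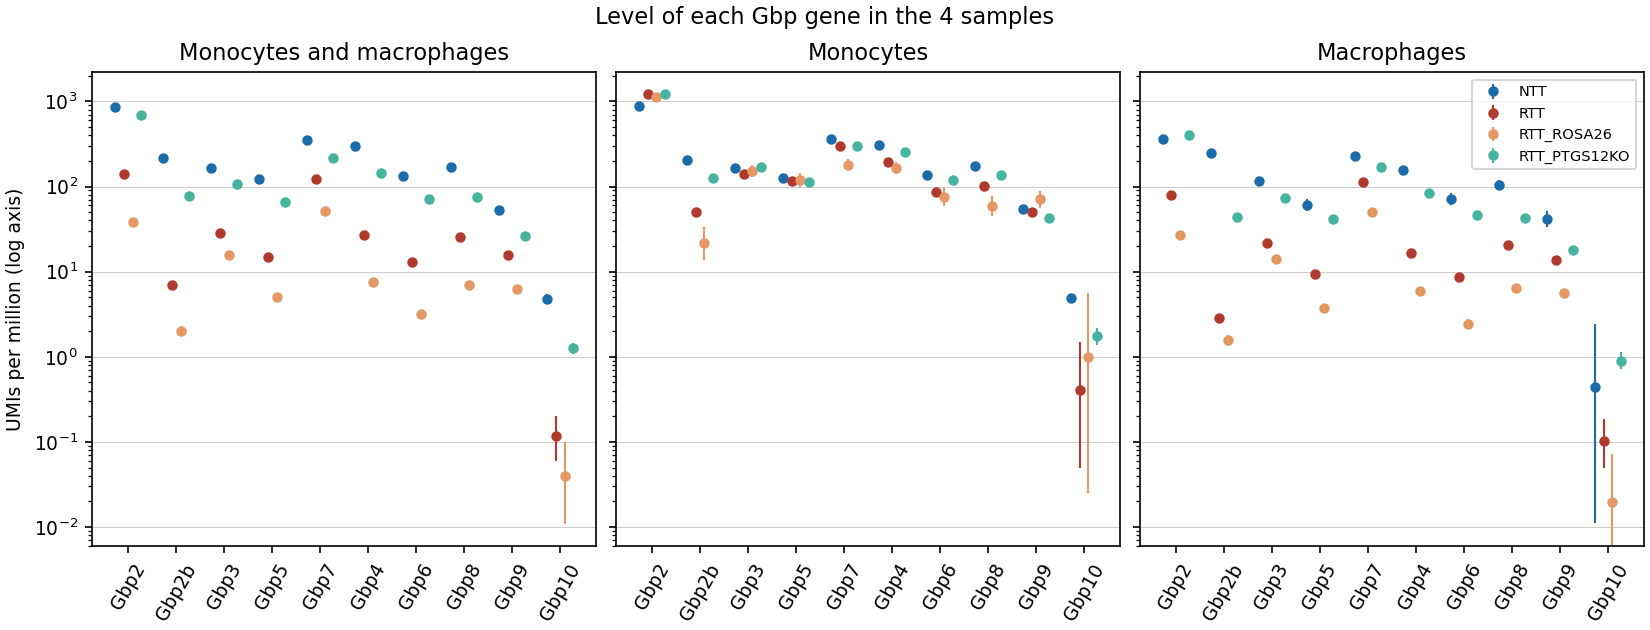
CPM (log axis) of each Gbp gene in monocytes and macrophages together, in monocytes and in macrophages, with 1 point per sample and exact Poisson 95% bars for counting error. In the first panel Gbp2 ranges from 38.7 in RTT_ROSA26 to 850.1 in NTT, while in the monocyte panel the Gbp2 points of all 4 samples lie between 891 and 1231.

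The samples also differed in which cells made up this compartment. Monocytes were 95.3% of monocytes and macrophages in NTT and 43.1% in the knockout, against 7.10% in RTT and 2.30% in RTT_ROSA26. These shares follow the authors' names. With cells placed by marker UMIs, monocytes were 18.1% in NTT, 12.2% in the knockout, 2.68% in RTT and 4.26% in RTT_ROSA26, and 5498 NTT cells were placed as macrophages. That rule leans to macrophages, since summed macrophage markers exceeded monocyte markers even in Monocyte_1 (6684 against 5663 CPM). Ratios at equal shares could use the types with at least 50 cells in both samples. For NTT against RTT these were Monocyte_1, Infl_Mono, TAM_cycling and TAM_H2Ab1, which leaves out TAM_C1q and TAM_Spp1, most of the RTT cells. Over these 4 types the log2 ratio was 1.56 at each sample's own shares and 0.35 at equal shares (2152 against 1684 CPM). Equal shares over 7 types took the knockout contrast to 0.99 (1248 against 629 CPM), from 3.40 at own shares, and the yardstick to -0.84, from -1.49. Under equal shares Gbp2b alone of the 9 members over 10 CPM on average stayed at least 2-fold higher in NTT, at 2.44 (beside 1.71% of genes), and Gbp2 turned to the other side, at -0.29 with 719 CPM in NTT and 877 in RTT. For the knockout contrast 5 members stayed at least 2-fold higher (beside 1.04%), and for the yardstick 2 stayed lower (beside 0.403%). In the knockout contrast these were led by Gbp2b at 2.36, with Gbp7 at 1.26, while Gbp2 was at 0.80 and Gbp9 at 0.18. Shares of the family's UMIs followed the same split, since Monocyte_1 and Infl_Mono gave 64.8% and 22.8% of them in NTT, TAM_C1q gave 29.2% in RTT, TAM_cycling gave 29.9% in RTT_ROSA26 and Monocyte_1 41.6% in the knockout.

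Within monocytes the summed family differed far less between the tumours than in the pooled cells. Its sum was 2432, 2267, 1979 and 2489 CPM, from 6619, 522, 144 and 4015 cells. The cells behind it were less alike, since 99.7, 97.3, 81.3 and 99.8% of monocytes had a family UMI, and 94.1, 93.1, 67.4 and 97.6% had one of Gbp2. With cells thinned to 4000 UMIs the Gbp2 shares were 87.6, 85.9, 63.8 and 92.4%, RTT_ROSA26 again the lowest. Median depths were 7113, 8404, 5934 and 9102 UMIs, and in the Myofibrobl cells, the lowest for the family, the thinned Gbp2 share was 6.1% in RTT and 1.31% in RTT_ROSA26. The log2 ratio was 0.10 (95% interval 0.07 to 0.13) for NTT against RTT, 0.33 (95% interval 0.27 to 0.40) for the knockout contrast and -0.20 (95% interval -0.27 to -0.13) for the yardstick. Of the 9 members over the filter, 1 was at least 2-fold higher in NTT (beside 1.63% of genes), 2 were higher in the knockout (beside 1.82%) and 1 was lower in RTT_ROSA26 than in RTT (beside 1.86%). Gbp2b was the member in each of the 3 counts, and Gbp8 was the other one in the knockout.

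The monocyte levels of single members went different ways. Gbp2 was lowest in NTT, at 891, 1231, 1129.6 and 1224 CPM, with a log2 ratio of -0.47 (95% interval -0.50 to -0.43) against RTT. Gbp2b went the other way, at 205, 49.8, 22.0 and 127 CPM, and its ratios were 2.02 for NTT against RTT and 2.48 for knockout against guide control. Gbp5 stayed between 113 and 126 CPM in the 4 samples, the narrowest range of the family. Gbp4 stood at 309, 195, 167 and 254 CPM, Gbp6 at 137, 85.2, 75.8 and 119.7 and Gbp8 at 175, 102, 59.9 and 137. For these chromosome 5 genes both controls lay under NTT and the knockout, with knockout log2 ratios of 0.60 to 1.18 and NTT ratios of 0.66 to 0.78. Gbp7 stood at 364, 298, 181 and 299 CPM, with RTT_ROSA26 alone below the other samples, and Gbp3 at 166, 141, 153 and 172 CPM. Gbp9 was highest in RTT_ROSA26, at 70.8 CPM beside 42.8 to 54.5 in the others, so its knockout ratio of -0.71 lies on the other side of 0 from most of the family. Infl_Mono was 86 of 144 monocytes in RTT_ROSA26 against 635 of 4015 in the knockout. Gbp9 stood higher in Infl_Mono than in Monocyte_1, at 67.4 against 50.6 CPM in NTT and 56.1 against 40.9 in the knockout. The part of this mix in the ratio was not tested. Gbp5 was also slightly below 0 in the knockout contrast, at -0.09, with an interval that holds 0. Gbp10 had 251, 2, 1 and 73 UMIs in these monocytes.

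The monocytes are mostly of 2 named types. In Monocyte_1, with 4977, 384, 54 and 3347 cells, the family stood at 2335, 2279, 2430.0 and 2367 CPM, and the 3 log2 ratios were 0.03, -0.04 and 0.09. In Infl_Mono, with 1616, 138, 86 and 635 cells, it stood at 2756, 2232, 1699 and 3379.6 CPM, with ratios of 0.30 for NTT against RTT and 0.99 for the knockout contrast. Single members differed by type too. In Monocyte_1, 1 of 9 members was at least 2-fold higher in the knockout (beside 4.02% of genes, member median -0.0003). In Infl_Mono 5 of 9 were (beside 3.88%, member median 1.01). The similar monocyte levels are those of cells named as monocytes, and the authors gave the names from the same cells and genes. When cells were placed by monocyte and macrophage marker UMIs without interferon-induced monocyte genes, the family's ratio in the 1259, 197, 267 and 1136 cells placed as monocytes was 0.81, 2.38 and -1.45 for the 3 contrasts. That rule set 10 macrophage genes against fewer monocyte genes. Even Monocyte_1 held 6684 CPM of macrophage markers beside 5663 of the full monocyte list, so the rule leans to macrophages. It cannot decide how far the similar levels depend on the names.

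Macrophages differed between tumours in every member over the filter. They were taken as TAM_C1q, TAM_Spp1, TAM_cycling, Ctsk_Macro and Macro, with 137, 6770, 6112 and 4939 cells. The family stood at 1397, 288, 117 and 927 CPM, with log2 ratios of 2.28 (95% interval 2.22 to 2.33) for NTT against RTT, 2.98 (95% interval 2.95 to 3.01) for the knockout contrast and -1.29 (95% interval -1.33 to -1.26) for the yardstick. At least 2-fold higher were 9 of 9 members in NTT (beside 4.84% of genes) and 9 of 9 in the knockout (beside 2.36%), and 7 of 9 were lower in RTT_ROSA26 than in RTT (beside 0.746%). Gbp2 stood at 366, 80.5, 27.3 and 404 CPM, and here the knockout was above NTT. Gbp2b stood at 250.3, 2.84, 1.56 and 43.4 CPM, which is a log2 ratio of 6.03 for NTT over RTT. For Gbp2b the NTT level was thus above the knockout, the reverse of the order for Gbp2. Gbp7 stood at 232, 113, 49.6 and 171 CPM and kept the smallest NTT ratio, 1.03. The remaining members lay between 1.55 (Gbp9) and 3.14 (Gbp4) for NTT against RTT and between 1.53 (Gbp9) and 3.76 (Gbp6) for the knockout contrast. The types that make up the class differed too, since TAM_cycling was 57.7% of macrophages in NTT and 37.1% in the knockout, against TAM_C1q at 50.4% in RTT and 36.8% in RTT_ROSA26.

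TAM_cycling, the cycling macrophages, had at least 50 cells in all 4 tumours (79, 873, 1834 and 1832) and was the only macrophage type that did. There the family stood at 1552, 348, 107 and 1181 CPM, with log2 ratios of 2.15 (95% interval 2.08 to 2.22), 3.46 (95% interval 3.41 to 3.50) and -1.70 (95% interval -1.75 to -1.64) for the 3 contrasts. All 9 members over the filter were at least 2-fold higher in NTT (beside 4.19% of genes), higher in the knockout (beside 2.96%) and lower in RTT_ROSA26 than in RTT (beside 0.747%). Gbp2 stood at 383, 101, 23.5 and 519 CPM. Gbp2b stood at 298, 7.74, 1.36 and 72.7 CPM, 38.4-fold higher in NTT than in RTT and 53.4-fold higher in the knockout than in its control. Gbp7 stood at 244, 121, 46.1 and 195 CPM and again had the smallest NTT ratio, 1.01.

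The macrophage types with enough cells in the resistant lines gave the same direction for the knockout. The family stood at 264, 118 and 482 CPM in TAM_C1q of RTT, RTT_ROSA26 and RTT_PTGS12KO, a knockout ratio of 2.02. In TAM_Spp1 the levels were 225, 89.2 and 465 CPM, a ratio of 2.37. Ctsk_Macro showed the largest knockout ratio of the macrophage types, 3.90, from 146 to 2194 CPM. Macro went from 593 to 2851 CPM, and it was the macrophage type whose controls were closest, at -0.35 for RTT_ROSA26 against RTT. Its summed macrophage markers also changed, from 38829.5 CPM in RTT_ROSA26 to 9701 in the knockout, and its summed cDC2 markers, 651 CPM, were as high as the 638 of cDC2s. Their part in the result was not tested. TAM_H2Ab1 was high wherever it could be measured, at 1963 CPM in NTT, 2341 in RTT and 2147 in the knockout, a ratio of -0.25 for NTT against RTT. RTT_ROSA26 had 11 such cells.

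The family was also above its controls in the cDC2s and neutrophils of NTT and of the knockout. In cDC2s, the conventional dendritic cells that mainly present antigen to CD4 T cells, the family stood at 1249.7, 456, 133 and 1285 CPM from 282, 174, 288 and 344 cells, with log2 ratios of 1.45 (95% interval 1.35 to 1.56) for NTT against RTT and 3.26 (95% interval 3.10 to 3.41) for the knockout contrast. At least 2-fold higher were 8 of 9 members in NTT (beside 4.65% of genes) and 9 of 9 in the knockout (beside 4.82%). The summed monocyte markers of these cDC2s moved with the family, at 4946, 808, 793 and 2388 CPM, and their part in the result was not tested. Neutrophils stood at 1950.0, 1045, 308 and 2526 CPM from 106, 146, 146 and 123 cells, with ratios of 0.90 (95% interval 0.81 to 0.99) and 3.03 (95% interval 2.91 to 3.15). These cells carried macrophage RNA, with summed macrophage markers at 5159.9, 20532, 21690.3 and 7827 CPM beside neutrophil markers at 53182, 53611, 34232 and 42584. The macrophage markers were thus highest where the family was lowest. Summed monocyte markers, at 5397, 3426, 1897 and 4241 CPM, were lowest there, and the part of either list in the result was not tested. In neutrophils 6 of 9 members were at least 2-fold higher in NTT (beside 4.69% of genes) and 9 of 9 in the knockout (beside 4.49%). For the yardstick the family was at -1.77 in cDC2s and -1.76 in neutrophils, so RTT_ROSA26 was the lowest sample in each of these types.

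**Figure D2:**
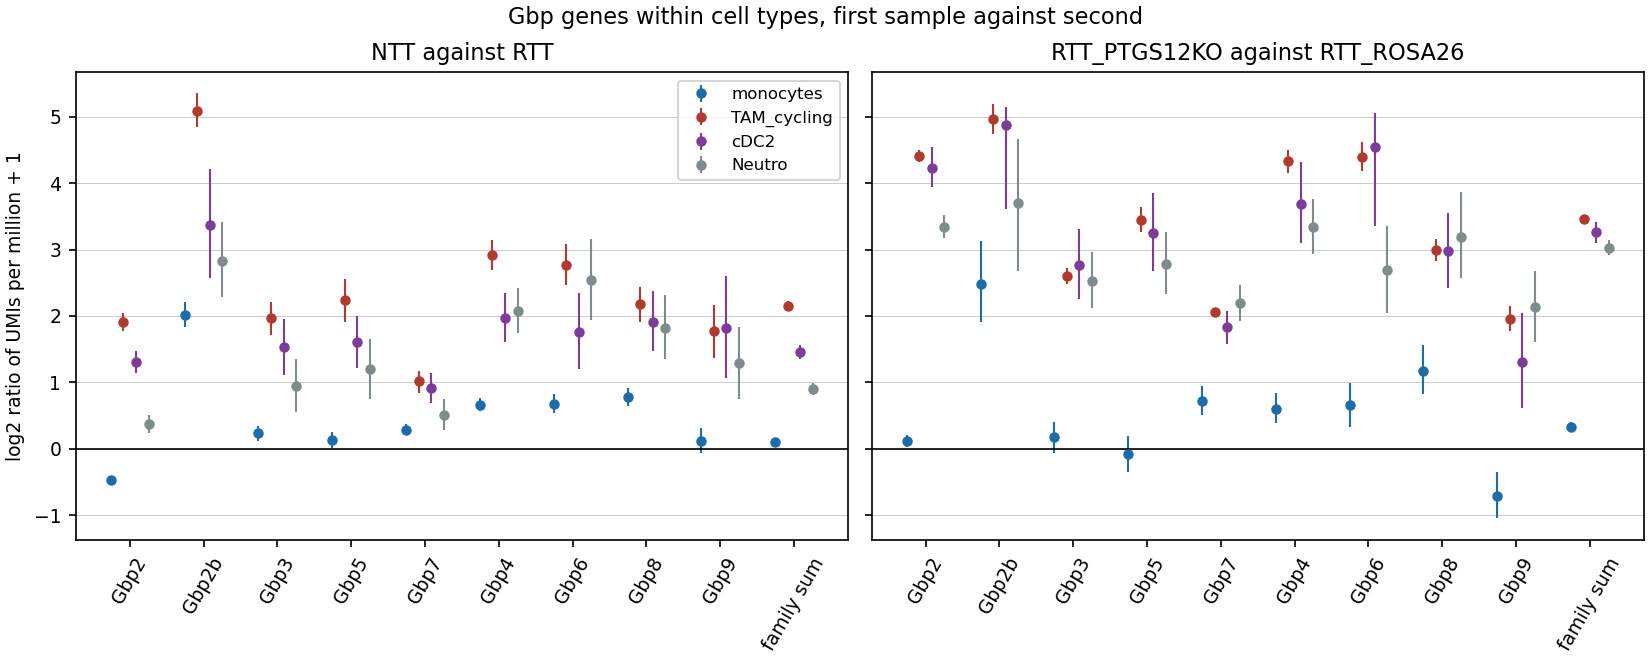
Log2 ratios of CPM + 1 for 9 Gbp genes and the family sum within monocytes, TAM_cycling, cDC2s and neutrophils, NTT against RTT on the left and RTT_PTGS12KO against RTT_ROSA26 on the right, with 95% bars for counting error only. On the left, Gbp2 lies at -0.47 in monocytes and 1.91 in TAM_cycling, while Gbp2b lies above 1 in all 4 cell types.

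Ordered by level, the family sum ran from 3379.6 CPM in Infl_Mono of the knockout down to 14.1 CPM (9.76 to 19.7) in the stromal-marker cells named Myofibrobl of RTT_ROSA26. Myofibrobl of RTT stood at 71.6 CPM. These are the lowest points of the family, and each count can hold free RNA, whose part was not measured. In NTT the order was Infl_Mono, Monocyte_1, TAM_H2Ab1, neutrophils, TAM_cycling, cDC2s, DC3, NK cells and CD8 T cells, at 2756, 2335, 1963, 1950.0, 1552, 1249.7, 777, 497 and 368 CPM. TAM_H2Ab1 at 1903 to 2025 and neutrophils at 1871 to 2032 overlapped in their counting intervals, and other neighbours in that order did not. In the knockout the order was Infl_Mono, Macro, neutrophils, Monocyte_1, Ctsk_Macro, TAM_H2Ab1, cDC2s, TAM_cycling, DC3, TAM_C1q, TAM_Spp1 and NK cells, with NK cells at 393 CPM. Ctsk_Macro and TAM_H2Ab1 overlapped there, as did TAM_C1q and TAM_Spp1. RTT was led by TAM_H2Ab1, Monocyte_1 and Infl_Mono at 2341, 2279 and 2232 CPM, which overlapped, then neutrophils, Macro, Ctsk_Macro, cDC2s, TAM_cycling, TAM_C1q, TAM_Spp1 and Myofibrobl, with Ctsk_Macro and cDC2s overlapping. RTT_ROSA26 was led by Monocyte_1 and Infl_Mono, followed by Macro and neutrophils, and its other types of at least 50 cells were at or under 146 CPM. DC3, the CCR7+ dendritic cells, stood at 777 CPM in NTT and 1081 in the knockout, and was under 50 cells in both controls. The part of free RNA in the lymphocyte levels was not tested.

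**Figure D3:**
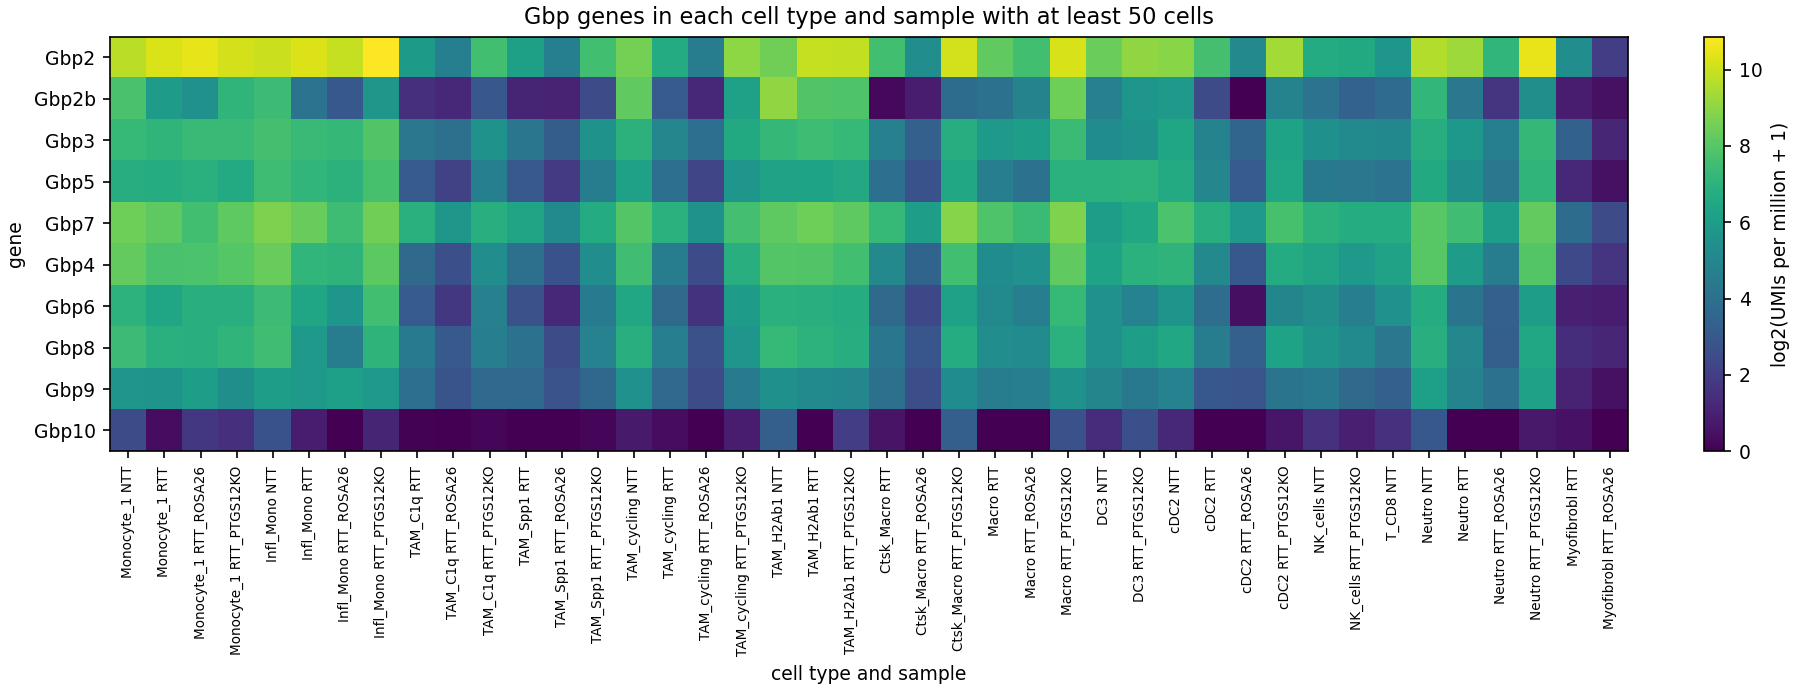
Log2 of CPM + 1 for each Gbp gene (rows) in each of the 42 combinations of cell type and sample with at least 50 cells (columns, grouped by cell type). Monocyte columns are bright in all samples, the TAM_cycling and cDC2 columns are brighter in NTT and RTT_PTGS12KO than in RTT and RTT_ROSA26, and Gbp10 is dark throughout.

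Gbp2 and Gbp2b, neighbours on chromosome 3 with distinct 3' ends, were not in a fixed proportion. Gbp2b made up 18.7% (95% interval 18.4 to 19.0, 10551 of 56493 UMIs) of the pair in NTT monocytes and 9.43% (95% interval 9.19 to 9.68, 5311 of 56299 UMIs) in those of the knockout. In the controls it was 3.88% (95% interval 3.42 to 4.39, 244 of 6281 UMIs) in RTT and 1.91% (95% interval 1.20 to 2.87, 22 of 1154 UMIs) in RTT_ROSA26. Each sample's interval lay apart from the next, but by chip load the controls overlapped, at 2.91 to 5.26% in RTT and 1.25 to 3.20% in RTT_ROSA26. Within single types the order NTT, knockout, then controls was seen in Monocyte_1 (20.1, 10.8, 4.78 and 3.03% in NTT, knockout, RTT and RTT_ROSA26) and in TAM_cycling (43.7, 12.3, 7.10 and 5.47%), where the intervals of the 2 controls overlapped. In neutrophils NTT stood apart at 15.5%, while the knockout at 2.75% was beside RTT at 3.07%. The highest share was that of TAM_H2Ab1 in NTT, at 59.3%, and in this type RTT at 19.9% and the knockout at 19.6% overlapped. In cDC2s of RTT_ROSA26, 0 of 93 UMIs were Gbp2b, which allows a share of up to 3.89% (exact 95% bound). Against a floor of 3 counts there, Gbp2b was at least 25.9-fold higher in cDC2s of the knockout, from 99 UMIs.

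Set side by side, the naive and the knockout tumour differed on this pair in opposite senses within most single cell types. In monocytes and macrophages together both genes were higher in NTT, with log2 ratios of NTT over RTT_PTGS12KO of 0.31 for Gbp2 and 1.47 for Gbp2b, and over all CD45+ cells the values were 0.15 and 1.32. By type, the log2 ratio of NTT over RTT_PTGS12KO for Gbp2 was -0.42 in Monocyte_1, -0.85 in Infl_Mono, -0.44 in TAM_cycling, -1.39 in TAM_H2Ab1, -0.42 in cDC2s and -0.86 in neutrophils. For Gbp2b in the same types it was 0.63, 1.71, 2.02, 1.19, 1.01 and 1.81. Gbp2 was thus lower and Gbp2b higher in NTT in 6 of these 6 types, by more than the counting intervals. DC3 and NK cells were different, with Gbp2 at -0.69 and Gbp2b at -0.98 in DC3, and 0.08 and 0.70 in NK cells.

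**Figure D4:**
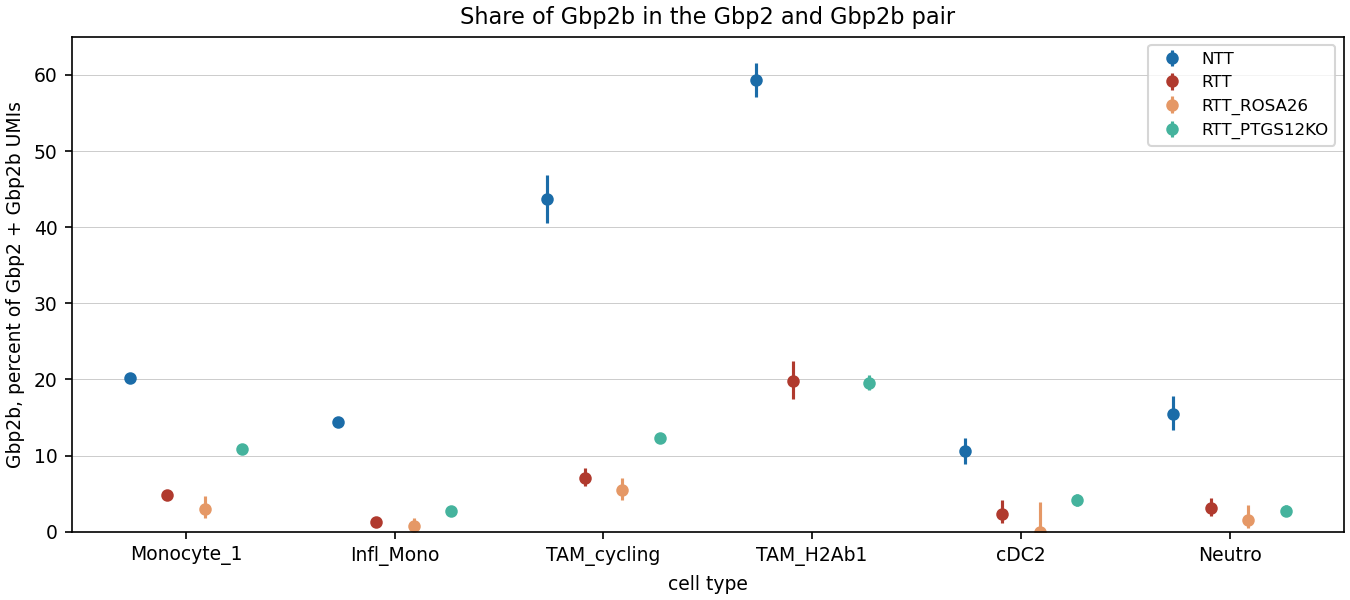
Gbp2b as a percent of the UMIs of Gbp2 and Gbp2b in 6 cell types, with 1 point per sample and exact Clopper-Pearson 95% bars for counting error. NTT is the highest point in each type, from 10.6% in cDC2s to 59.3% in TAM_H2Ab1, and RTT_ROSA26 is absent from TAM_H2Ab1 because it had 11 such cells.

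The make-up of the family differed between the samples, and only in part with its level. These are shares of 3'-tag UMIs, which are not divided by length because each transcript is tagged once. In macrophages Gbp7 gave 16.6% of the family's UMIs in NTT and 18.5% in the knockout, against 39.4% in RTT and 42.5% in RTT_ROSA26, so it was the leading member where the family was low. Gbp2 gave 43.6% in knockout macrophages against 26.2% in NTT, 28.0% in RTT and 23.4% in RTT_ROSA26. Gbp2b gave 17.9% in NTT and 4.68% in the knockout, against 0.987% and 1.34% in the controls. Monocytes were led by Gbp2 in every sample, at 36.6, 54.3, 57.1 and 49.2%, and NTT had the lowest share.

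**Figure D5:**
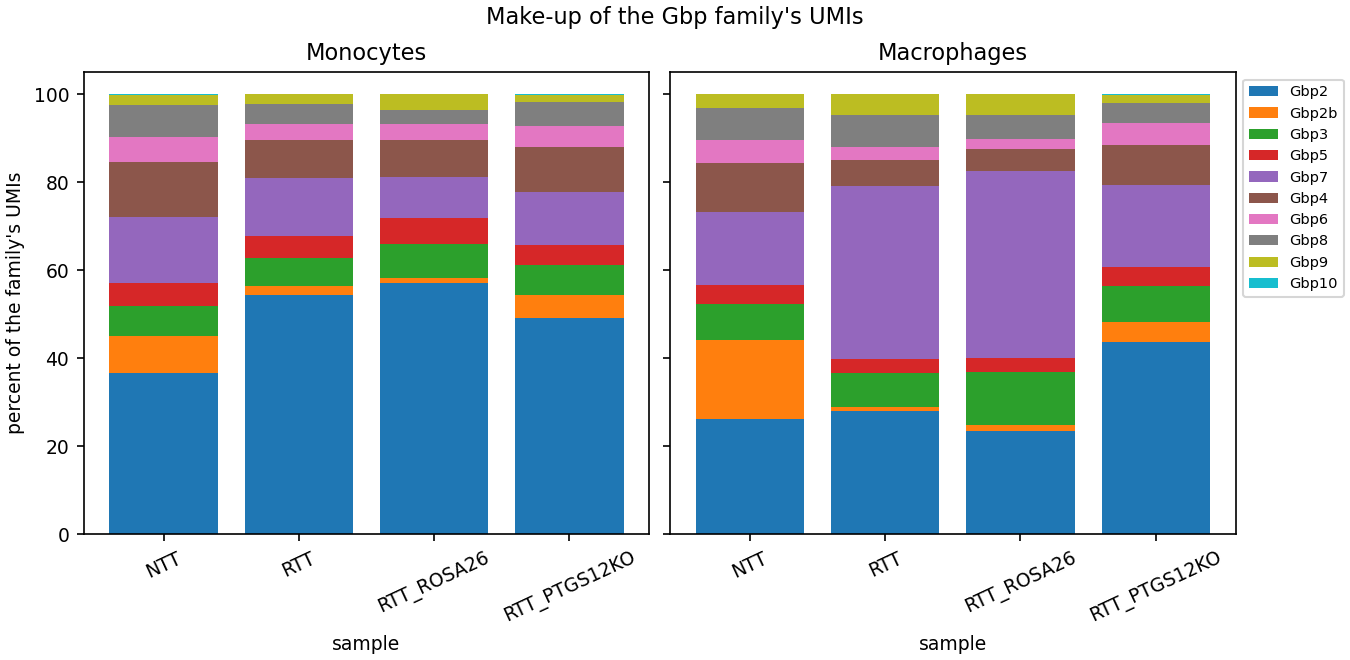
Percent of the family's UMIs given by each Gbp gene (stacked bars) in monocytes and in macrophages of the 4 samples. The Gbp7 segment takes 39.4% and 42.5% of the macrophage bars of RTT and RTT_ROSA26 against 16.6% and 18.5% in NTT and RTT_PTGS12KO.

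Single cells of the high samples carried several members at once. With each cell thinned to 4000 UMIs, monocytes held UMIs of 4.41, 3.53, 2.73 and 4.08 members on average. Macrophages held 3.28, 0.758, 0.356 and 1.71, and TAM_cycling cells 3.83, 0.903, 0.329 and 2.33. In Myofibrobl, the lowest cells, the number was 0.16 in RTT and 0.0573 in RTT_ROSA26, with any free RNA included. Cells under 4000 UMIs were left out, 626, 128, 183 and 256 of the pooled monocytes and macrophages. Without thinning, cells of that set held 5.68, 2.04, 1.12 and 4.64 members.

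Genes of interferon signalling, upstream factors and feedback genes alike, were measured in the same monocytes and macrophages. There 6.89% and 4.07% of all genes passed 2-fold upward in the first and the knockout contrast. The list of 16, called regulators here, includes genes that interferons themselves induce, and it shares a gene with the interferon-gamma list below. Of the 16 regulators, 10 of 16 were at least 2-fold higher in NTT than in RTT and 8 of 16 in the knockout than in its control, with medians of 1.46 and 1.11 on the log2 scale. Irf1, an interferon-induced transcription factor that acts on Gbp promoters, stood at 384, 106, 31.1 and 248 CPM in NTT, RTT, RTT_ROSA26 and RTT_PTGS12KO. The chains of the interferon-gamma receptor did not share this order, with Ifngr1 at 121, 213, 154 and 107 CPM and Ifngr2 at 86.5, 83.3, 85.1 and 74.0 CPM. Socs1, a feedback inhibitor of the receptor kinases, had log2 ratios of 2.87 and 3.23, and Batf2, another interferon-induced factor, 2.81 and 3.27. Within monocytes alone 0 of 16 and 1 of 16 were higher (beside 1.63% and 1.82% of genes), and within macrophages 7 of 16 and 9 of 16 (beside 4.84% and 2.36%), and these shares apply to the lists below too.

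The immunity-related GTPases, which load onto the same vacuoles, were high in the same samples. All 8 that passed the filter were at least 2-fold higher in both contrasts, with medians of 2.82 and 3.16. RTT_ROSA26 was itself below RTT in this list, with 5 of 8 at least 2-fold lower (median -1.15) beside 1.19% of genes, and this enters the knockout ratios. For the yardstick the other lists gave 4 of 16 regulators lower (median -0.45), 1 of 11 inflammasome partners (-0.28), 0 of 13 type I genes (-0.64) and 4 of 10 interferon-gamma genes (-0.86), and 0 genes of the 5 lists were at least 2-fold higher. Iigp1, an effector at the parasite vacuole, stood at 532, 60.8, 16.3 and 399.6 CPM, and Irgm1, a regulator of that group, at 259, 41.2, 20.5 and 158 CPM. Irgm2 had the smallest knockout ratio of the list, 2.17, and Gm4951 was at 3.74. In macrophages 7 of 7 were higher in both contrasts, while in monocytes 1 of 8 and 1 of 8 were.

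Partners of the family in inflammasomes had smaller ratios. Of 11 over the filter, 4 were at least 2-fold higher in NTT and 3 in the knockout, with medians of 0.87 and 0.49. Casp4, the mouse caspase-11 that binds lipopolysaccharide, had log2 ratios of 1.58 and 1.23, and Casp1 1.55 and 1.27. Zbp1, a nucleic acid sensor, had the highest knockout ratio of the list, 2.72. Aim2, the DNA sensor, stood at 30.6, 21.1, 23.3 and 23.9 CPM and Ninj1, which carries out plasma membrane rupture, at 265, 145, 158 and 157 CPM, with knockout ratios of 0.04 and -0.01. The list gave 2 of 11 and 1 of 11 in macrophages and 1 of 11 and 0 of 11 in monocytes.

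Genes led by type I interferon and by interferon-gamma were set beside the family, as separate lists. In the pooled cells 13 of 13 type I genes and 10 of 10 interferon-gamma genes were at least 2-fold higher in both contrasts. For type I genes the median was 3.26 for NTT against RTT and 2.06 for the knockout contrast, and for interferon-gamma genes 3.25 and 3.11. Isg15, a ubiquitin-like modifier of the type I list, stood at 879, 51.5, 32.8 and 220.2 CPM in NTT, RTT, RTT_ROSA26 and RTT_PTGS12KO, and Cxcl9, a chemokine for T cells of the interferon-gamma list, at 1009, 104, 35.5 and 758 CPM. Slamf8 had the next ratio after Cxcl9 in the knockout contrast, 4.15, and the class II antigen presentation genes H2-Ab1 and Cd74 had 2.56 and 2.48. Oas3 was at 2.53, and the type I genes Cmpk2 and Ifit3 were lowest, at 1.74 and 1.45. Within monocytes the lists parted for the knockout contrast, with 0 of 13 type I genes higher and 6 of 13 lower (beside 1.63% of genes lower, median -0.89), against 5 of 10 interferon-gamma genes higher (median 1.08). The yardstick showed the opposite split, with 1 of 13 type I genes higher (beside 1.43% of genes, median 0.52) and 4 of 10 interferon-gamma genes lower (beside 1.86%, median -0.49), so the 144 control monocytes enter both. In monocytes H2-Ab1 stood at 6664, 4242, 1669 and 4639 CPM and Cd74 at 1853, 1344, 582 and 1371 CPM, with RTT_ROSA26 alone far below the others, and Ifit3 at 117, 137, 236 and 45.4 CPM, with RTT_ROSA26 the highest. Within the named types fewer type I genes were lower, since 1 was higher and 1 lower in Monocyte_1 (beside 4.02% and 2.3% of genes, median -0.10) and 1 higher and 0 lower in Infl_Mono (beside 3.88% and 3.25%, median 0.15), and Infl_Mono was 86 of 144 monocytes in RTT_ROSA26 against 635 of 4015 in the knockout. The interferon-gamma genes were higher in 1 of 10 in Monocyte_1 and 8 of 10 in Infl_Mono. For NTT against RTT in monocytes 5 of 13 and 3 of 10 were higher, but in Monocyte_1 alone 11 of 13 type I genes and 3 of 10 interferon-gamma genes were (beside 2.13% of genes), and in Infl_Mono 2 of 13 and 7 of 10 (beside 3.1%). In macrophages the counts were 12 of 12 and 11 of 12 for type I genes and 10 of 10 in both contrasts for interferon-gamma genes, with knockout medians of 1.36 and 2.48.

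The genes whose pattern was most like the family sum were Ifi47, Igtp and Irgm1, all immunity-related GTPases, then Calhm6, an ion channel gene. Their Pearson correlations of log2(CPM + 1) with the sum were 0.982, 0.979, 0.973 and 0.966 among 7096 genes. They were computed over the 42 points of cell type and sample with at least 50 cells, which share samples, loads and depth, and are given as a description. Between members the correlation ran from 0.485 (Gbp7 and Gbp10) to 0.975 (Gbp4 and Gbp6), and Gbp2 and Gbp2b were at 0.764.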

How the data were processed

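The authors deposited 1 matrix of UMI counts (whole-number counts, not normalized) of 32285 genes in 33368 cells, with a sample and a cell type name for every cell. By the study's methods and the labels, cells of 4 samples were oligo-labelled, pooled, loaded 3 times, counted with Cell Ranger on mm10 and named in Seurat 4.3.0, at more than 1000 genes, mitochondrial UMIs below 15% and ribosomal UMIs below 40%. The oligos take out doublets of different samples, no doublet caller was run here, and the 5% of cells with most UMIs were left out as an alternative. Loads are technical repeats and were summed.

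UMIs were summed per sample and cell type and given as CPM. Ratios are log2 of CPM + 1, with intervals combined from exact Poisson bounds, and share intervals are exact Clopper-Pearson, at 95%. Intervals cover counting error only, and a count of 0 has a floor of 3 counts. Depth was 69332486 to 146829369 UMIs a sample. With 1 sample a group no test was made. Genes whose mean CPM over samples of 50 or more cells reached 10 entered counts past 2-fold. Monocytes are Monocyte_1, Infl_Mono and Monocyte_3. The interval calculation was tested on simulated data. Thinning to 4000 UMIs used expected values. Scripts ran in Python 3.11.15 with numpy 2.4.6, scipy 1.17.1, pandas 2.3.3 and matplotlib 3.10.9, and edgeR 4.0.16 under R 4.3.3 gave TMM factors.

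Members and gene lists were chosen with earlier results of these data known. Named genes are the 10 members, the 5 genes most correlated with their sum, the 2 highest and 2 lowest knockout ratios of each list, and Irf1, Ifngr1, Irgm1, Iigp1, Cxcl9, Isg15, Casp4 and Aim2. A gene that this rule also names is not reported here. Alternatives were CPM + 10, TMM factors, the mean over cells, stricter cell filters (over 1500 genes, under 10% mitochondrial), the top 5% left out, equal cell type shares, cells placed by marker UMIs, sums without Gbp2 or Gbp2b, single loads and no filter on genes. Those with TAM_H2Ab1 or Infl_Mono moved or left out, with TAM_cycling alone and with the types of the equal-share ratios at own shares were chosen after seeing the data.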

Additional observations from a re-analysis of the deposited data

Results flagged for a closer look

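For 2 members, monocytes and macrophages lay on opposite sides of 0 under the same contrast with counting intervals that exclude 0 in both, which was not tested because each group is 1 sample. For NTT against RTT, Gbp2 had a log2 ratio of -0.47 in monocytes (95% counting interval -0.50 to -0.43) and 2.17 in macrophages (2.07 to 2.27). For RTT_PTGS12KO against RTT_ROSA26, Gbp9 had -0.71 in monocytes and 1.53 in macrophages. For RTT_ROSA26 against RTT, Gbp9 had 0.50 in monocytes and -1.15 in macrophages. Both Gbp9 values rest on the 144 monocytes of RTT_ROSA26, of which 86 were Infl_Mono. The locus of Gbp9 overlaps Gbp8 and Gbp4, although 0 stretches at its 3' end were shared with another member.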

How the results depend on the processing

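With 1 sample per group, the values carry counting error alone, and differences between mice cannot be told apart from the conditions. No paired analysis was possible because a group is 1 sample only.

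For the family sum in monocytes and macrophages, the ratios for NTT against RTT, the knockout contrast and RTT_ROSA26 against RTT were 2.57, 3.42 and -1.54. They became 2.54, 3.33 and -1.48 with CPM + 10, 2.72, 3.58 and -1.63 with TMM factors, 2.45, 3.34 and -1.44 as the mean over cells, 2.60, 3.47 and -1.57 without the top 5% of cells, 2.38, 2.87 and -1.37 without Gbp2 and Gbp2b, and 0.35, 0.99 and -0.84 with equal cell type shares. Over the same types at their own shares they were 1.56, 3.40 and -1.49. Leaving out 1 chip load gave 2.54 to 2.59, 3.34 to 3.48 and -1.63 to -1.45. Without TAM_H2Ab1 the first was 2.64 and the last -1.49. With equal shares the counts of members past 2-fold went from 9, 9 and 8 to 1, 5 and 2, beside 1.71%, 1.04% and 0.403% of all genes compared, and with CPM + 10 the last was 4, beside 0.374%. Gbp2 reversed to -0.29 for NTT against RTT with equal shares.

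Within monocytes the ratios of 0.10, 0.33 and -0.20 became 0.81, 2.38 and -1.45 with cells placed by marker UMIs, and 0.0356, 0.00764 and 0.0474 without Infl_Mono, the last reversed. The first was 0.0189 as the mean over cells, the second 0.41 with TMM factors and 0.26 without the top 5%, and the third -0.10 with equal shares.

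Within macrophages the ratios of 2.28, 2.98 and -1.29 became 2.19, 3.06 and -1.39 with TMM factors, 2.40, 2.85 and -1.26 as the mean over cells, 2.35, 3.03 and -1.33 without the top 5%, 2.59, 3.38 and -1.55 with marker UMIs, 2.44, 3.07 and -1.36 with TAM_H2Ab1 counted in, and 2.15, 3.46 and -1.70 in TAM_cycling alone. With equal shares the first 2 were 2.15 and 2.84, where the first could use TAM_cycling only and so repeats the value of that type. With CPM + 10 the last 2 were 2.89 and -1.23.

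The causes of these shifts were not tested. Among the single members and alternatives, 151 values moved by less than their counting interval, 118 moved by more with the sign kept and 1 reversed. Without a filter on genes, 3.73% and 1.89% of all genes with a UMI were past 2-fold in the first and the knockout contrast.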
